A study of Mus musculus with 6 samples.

Results

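The genes described here encode the degradative enzymes of the lysosome, the proteins of its membrane, the proton pump that acidifies it and the transcription factors that drive its genes. They were taken by name as a list of 42 genes, and all 42 were found among the 49585 rows of the table and passed the filter on low values, as did 14023 rows in all. The list holds 11 glycosidases, 4 sulfatases, 6 sphingolipid enzymes and activator proteins, 3 proteases and thioesterases, 4 membrane proteins, 3 transcription factors and 11 subunit genes of the vacuolar proton pump (V-ATPase). The question was whether the RNA of these genes differs in monocytes of mice in which Syk was deleted. SYK is a tyrosine kinase that relays signals from immune receptors.

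RNA of bone marrow monocytes was sequenced from 3 Syk+/+ and 3 Sykdel/del libraries. Both genotypes carry Rosa26CreER(T2)+/+ and both were kept on a high-fat diet, over 8 weeks by the submitters' description. According to the methods, the floxed Syk gene was removed with oral tamoxifen on 3 consecutive days at 7 to 8 weeks of age. They give male mice for work in vivo and either sex for work in vitro. Which of these covers the sequenced monocytes is not said. The sources used here do not state whether the Syk+/+ mice received tamoxifen. High-fat feeding began at 8 weeks of age in the methods, and the age at which the marrow was taken is not given outright. Cre expressed from Rosa26 is not limited to myeloid cells, so the deletion reaches other cells of the mouse as well. Monocytes were isolated with a commercial kit. The authors give n = 3 per group for the monocytes of Syk+/+ and Sykdel/del mice, without saying that each library is a separate mouse. Nothing in the labels says so either, so the p-values rest on a spread between libraries that may be technical. In bulk RNA, fewer cells of a type and less RNA per cell cannot be told apart.

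Lysosomes break down proteins, glycans, lipids and nucleic acids with hydrolases that work at acidic pH, and the V-ATPase supplies that acidity by pumping protons with the energy of ATP. Monocytes and macrophages depend on this compartment to degrade what they take up, modified lipoproteins included. TFEB and its relatives TFE3 and MITF can enter the nucleus when mTORC1 at the lysosomal surface is inactive, and they bind E-box elements in the promoters of many lysosomal genes.

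The letters of that element are present in the promoters of several members, and examples are shown for 7 of them, chosen after the values were seen. Promoter windows of RefSeq for GRCm38.p6 run from 250 bases before to 50 bases after a gene's start, and 38 of the 42 members were matched by symbol (all but Atp6v1b2, Asah1, Atp6v1h and Atp6v1c1). The E-box CACGTG, which reads the same on both strands, was in at least 1 window of 14 of the 38 members (36.8%), against 8.09% of all 27025 genes with a window and 11.4% of the 10380 of these that were tested. The longer form TCACGTGA, which contains the E-box and is also the same on both strands, was in 6 of the 38 (15.8%), against 1.12% of all genes and 2.05% of those tested. Its 6 holders were Atp6v0d1, Atp6v0e, Atp6v1a, Cln3, Gla and Mcoln1. A match is a run of letters and not a measured binding site. The following stretches of 30 bases are read 5′ to 3′ on the strand of the gene, with the E-box or its longer form in capitals.
Gla, chrX:134601215-134601244: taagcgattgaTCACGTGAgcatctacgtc
Gla, chrX:134601182-134601211: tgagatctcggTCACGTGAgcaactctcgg
Glb1, chr9:114401018-114401047: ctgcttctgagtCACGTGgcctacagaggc
Lgmn, chr12:102439124-102439153: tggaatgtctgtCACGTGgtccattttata
Cln3, chr7:126583340-126583369: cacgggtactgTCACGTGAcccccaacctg
Mcoln1, chr8:3500462-3500491: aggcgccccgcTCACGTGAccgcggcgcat
Lamp1, chr8:13159088-13159117: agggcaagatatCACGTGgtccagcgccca
Atp6v1a, chr16:44139373-44139402: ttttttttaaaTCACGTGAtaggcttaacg

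Gla, Glb1 and Lgmn come first because their intervals left out 0 in the comparison of the genotypes, Cln3, Mcoln1 and Atp6v1a are holders of the longer form, and Lamp1 has the most E-boxes. Gla held the longer form at positions -227 and -194 from the RefSeq start, Glb1 and Lgmn a single E-box at -48 and -49, and Lamp1 4 E-boxes, the first at -61. In the comparison of the genotypes Gla and Glb1 were above 0 and Lgmn below it, and none of them was called. The part of the element in these differences was not tested. In GENCODE the genes Lgmn, Cln3, Mcoln1 and Atp6v1a start upstream of the stretch shown.

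Values are normalized counts, that is, reads of a gene times 1 factor per library, and fold changes are differences of log2(normalized count + 1), Sykdel/del minus Syk+/+. The recovered reads assigned to genes were 6805111 to 7071823 in Syk+/+ and 4168626 to 6254375 in Sykdel/del, and a read was worth 0.923 to 1.56 normalized counts. Libraries of a genotype differed by more than sampling noise (chi-square per degree of freedom 2.39 to 11.2), and Sykdel/del replicate 1 stood furthest from the others of its genotype. Syk itself was 4463, 5527 and 5427 in Syk+/+ and 4794, 5094 and 4712 in Sykdel/del, a log2 fold change of -0.07. Exons left in place by the deletion can still yield reads for Syk, so its level cannot test the labels. The authors report the deletion by PCR and western blotting in several organs and in macrophages grown from marrow. They describe no such check of the sequenced monocytes. Of 9 markers of monocyte identity, 8 had a row of that exact name and were present in all 6 libraries, from Cd14 (76.5 to 213) to Lyz2 (53258 to 71325). None of the 8 was called, and 4 lay above 0 and 4 below. At an unadjusted p under 0.05 in limma, 2 were lower and 0 higher. Of these 2, Csf1r was 7093 to 9019 in Syk+/+ and 6367 to 6998 in Sykdel/del, without overlap. Fcgr1 was 489 to 619 in Syk+/+ and 367 to 510 in Sykdel/del, with overlap, at a log2 fold change of -0.33.

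No lysosomal gene of the list passed the test, and most differed by little between the genotypes. By limma with Benjamini-Hochberg adjustment over all genes, 0 of 42 members were lower and 0 were higher at an adjusted p under 0.05, beside 0.349% of the genes tested that were called lower and 0.0214% that were called higher. The smallest adjusted p of a member was 0.28, that of Glb1. At an unadjusted p under 0.05, 1 member (2.38%) was lower and 2 (4.76%) were higher, where 3.32% and 1.94% of all genes tested were. Genotypes did not overlap, lower in Sykdel/del, for 1 member (2.38%, against 5.19% of all genes tested) and, higher in Sykdel/del, for 4 members (9.52%, against 4.94%). Limma-voom on the recovered reads also called 0 members.

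The differences were small as well as uncalled. The median log2 fold change of the members was 0.03, beside 0.00097 over all genes tested, and 30 members lay above 0 and 12 below, although 25 of the 42 changed sign under at least 1 of 16 alternative settings. Of the 42 members, 34 (81.0%) differed by less than 0.1 on the log2 scale, whereas 44.0% of all genes tested and 63.9% of the 7443 genes with a mean of at least 100 did. The difference was smaller than the gene's own residual SD for 33 members (78.6%, against 72.3% of all genes tested). For 39 members the 95% interval of the log2 fold change lay within 0.5 either way, a 1.41-fold change, and only the intervals of Gla, Glb1 and Lgmn left out 0. The other 39 intervals ran no lower than -0.31 and no higher than 0.49.

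**Figure D1:**
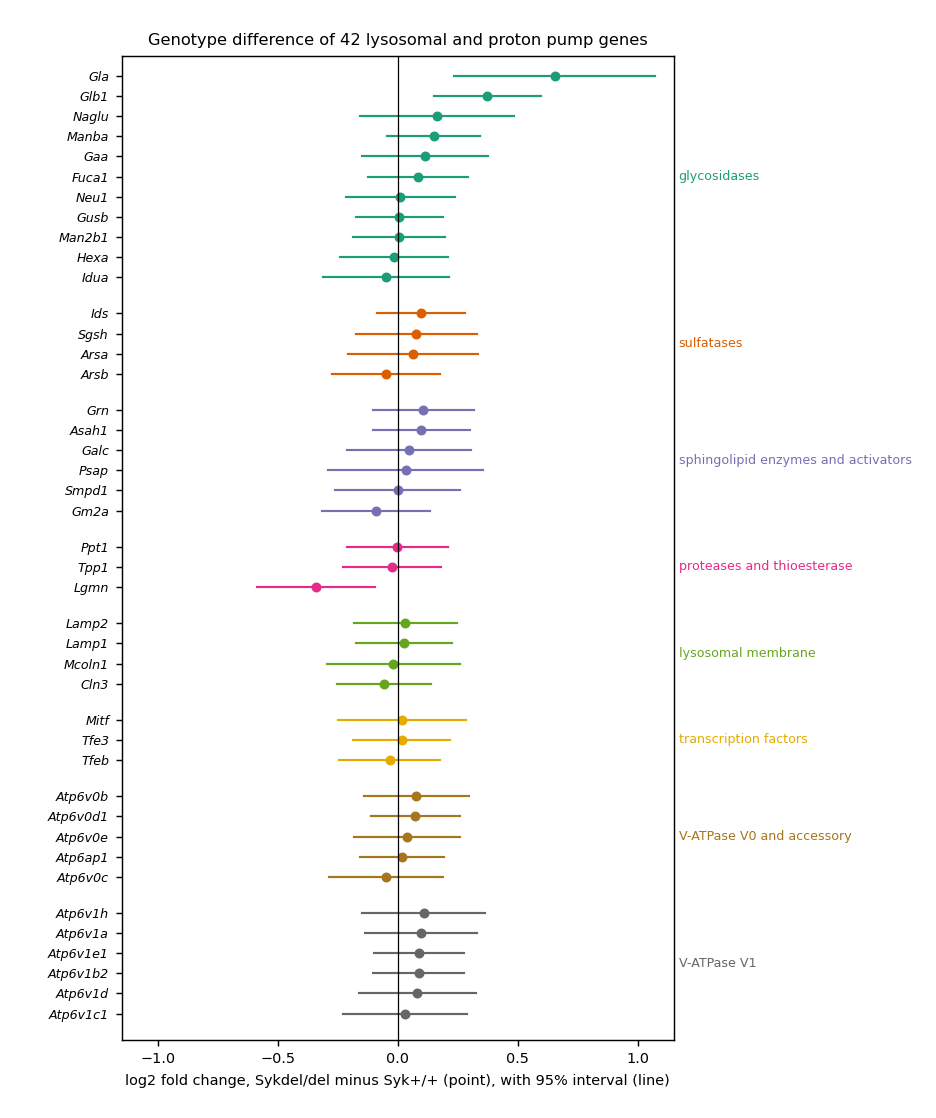
Log2 fold change of each of the 42 members (horizontal axis, Sykdel/del minus Syk+/+, 3 libraries each), with the 95% interval from limma as a line, grouped and coloured by role. All intervals but those of Gla, Glb1 and Lgmn include 0.

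These genes took a steady share of the RNA. Together the 42 members held 1.36%, 1.31% and 1.39% of the assigned reads in Syk+/+ and 1.30%, 1.42% and 1.44% in Sykdel/del, and the genotypes overlapped. Psap, which encodes prosaposin, the precursor of the saposins that present sphingolipids to their hydrolases, took 0.641% to 0.741% of the reads alone, and the other 41 members took 0.642% to 0.699% together. Psap was 43760, 43614 and 46969 in Syk+/+ and 41736, 47695 and 48210 in Sykdel/del, a log2 fold change of 0.03 (95% interval -0.29 to 0.36). The lowest and the highest of these 6 libraries were both Sykdel/del.

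Counts per kilobase of exon spanned a wide range within the list and kept their order. In Syk+/+ they ran from 16320 for Psap, 2164 for Grn, 1841 for Lamp1 and 1289 for Man2b1 down to 47.9 for Idua, 38.7 for Gla and 34.3 for Mitf. Of the 42 members, 40 changed by at most 2 places in this order between the genotypes. The coefficient of variation over the 3 libraries had a median of 6.33% in Syk+/+ and 7.62% in Sykdel/del, and the widest was the 29.2% of Gla in Sykdel/del.

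Among the glycosidases, which trim sugars from glycoproteins, glycolipids and glycosaminoglycans, 9 of 11 lay above 0 (Gusb, Neu1 and Man2b1 below it when some library was left out) and the median log2 fold change was 0.08. Gla, on chromosome X from 134588149 to 134601125 of GRCm38, encodes alpha-galactosidase A, which removes terminal galactose from globotriaosylceramide. Its normalized count was 127, 112 and 129 in Syk+/+ and 133, 226 and 240.3 in Sykdel/del. All 3 Sykdel/del libraries were above all 3 Syk+/+ libraries, replicate 1 by little and replicates 2 and 3 by a wide margin. The log2 fold change was 0.65 (SE 0.19, 95% interval 0.23 to 1.07, 1.57-fold), with an unadjusted p of 0.0051 and an adjusted p of 0.38 from limma. Without Sykdel/del replicate 1, the lowest Sykdel/del library for Gla, the log2 fold change was 0.92 and the adjusted p from limma was 0.0054. With that library left out, the calls over all genes also rose from 52 to 92. This was the only setting of 16 in which any member was called. The adjusted p of Gla ranged from 0.0054 to 1.00 over the 16.

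Glb1, on chromosome 9 from 114401076 to 114474898, encodes the beta-galactosidase that degrades the ganglioside GM1 and keratan sulfate. It was 243, 241 and 270.4 in Syk+/+ and 336, 312 and 329 in Sykdel/del, so that the lowest Sykdel/del library lay above the highest Syk+/+ library. The log2 fold change was 0.37 (SE 0.10, 95% interval 0.15 to 0.60, 1.30-fold) and kept between 0.33 and 0.43 over the 16 alternative settings, with an adjusted p of 0.28 in limma and of at least 0.26 in every alternative. An exon of Glb1 overlaps Tmppe on the same strand, so reads of the shared stretch could belong to either gene.

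Manba, the beta-mannosidase of glycoprotein breakdown, was 466, 482 and 491 in Syk+/+ and 555, 507 and 534 in Sykdel/del. The genotypes did not overlap, and the log2 fold change was 0.15 (95% interval -0.04 to 0.34, adjusted p = 1.00 from limma). The remaining 8 glycosidases had overlapping genotypes. Those above 0 were Naglu, which acts on heparan sulfate (0.17), Gaa, the acid alpha-glucosidase that digests glycogen (0.11), the alpha-fucosidase gene Fuca1 (0.08), the sialidase Neu1 (0.01), the beta-glucuronidase Gusb (0.01) and the alpha-mannosidase Man2b1 (0.0037). Hexa, the alpha subunit of beta-hexosaminidase, and Idua, the iduronidase of heparan and dermatan sulfate, were at -0.02 and -0.05.

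The sulfatases remove sulfate from glycosaminoglycans and sulfatide, and their median log2 fold change was 0.07. Ids, the iduronate-2-sulfatase, had the largest of the 4. Its normalized count was 592, 556 and 580.4 in Syk+/+ and 615, 617 and 616 in Sykdel/del. The 3 Sykdel/del libraries were almost equal and all lay above Syk+/+, at a log2 fold change of 0.10 (95% interval -0.09 to 0.28, adjusted p = 1.00 from limma). Sgsh (0.08), which acts on heparan sulfate, Arsa (0.06), on sulfatide, and Arsb (-0.05), on dermatan sulfate, had overlapping genotypes.

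The sphingolipid enzymes and activators had a median log2 fold change of 0.04, and none of the 6 separated the genotypes. Grn, progranulin, which is processed in the lysosome and binds prosaposin, had the largest difference of the group. It was 4927, 4890.2 and 5376 in Syk+/+ and 5051, 5443 and 5877 in Sykdel/del, at a log2 fold change of 0.11 (95% interval -0.10 to 0.32), with Sykdel/del replicate 1 inside the Syk+/+ range. Gm2a, the activator that lifts the ganglioside GM2 out of the membrane for beta-hexosaminidase, was 4779, 4423 and 4296 in Syk+/+ and 3700.0, 4407 and 4612 in Sykdel/del. Its log2 fold change of -0.09 (95% interval -0.31 to 0.13) came with overlapping genotypes, and only Sykdel/del replicate 1 lay below the Syk+/+ libraries. The ceramidase Asah1, the galactosylceramidase Galc and the sphingomyelinase Smpd1 were at 0.10, 0.05 and -0.00018.

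Lgmn was the only member with every Sykdel/del library below every Syk+/+ library. The gene, on chromosome 12 from 102394084 to 102439813, encodes legumain, a protease that cuts after asparagine and processes cathepsins and antigens. Its normalized count was 445, 431 and 429 in Syk+/+ and 296, 343 and 399.5 in Sykdel/del. The Syk+/+ libraries were close together, and the Sykdel/del libraries were spread below them. The log2 fold change was -0.34 (SE 0.11, 95% interval -0.59 to -0.09, 0.790 of the Syk+/+ level), with an unadjusted p of 0.011 and an adjusted p of 0.56 from limma. Without Sykdel/del replicate 1 it was -0.23, and without Sykdel/del replicate 3 it was -0.45, and neither was called (adjusted p = 0.53 and 0.21). Tpp1, a tripeptidyl peptidase, and Ppt1, a thioesterase that removes palmitate from proteins, were at -0.02 and -0.0023.

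Markers of other cells differed between the genotypes too. Of 15 markers of the resident macrophages of the marrow, 14 were tested and 2 were called lower, their median log2 fold change was -1.01, and their summed normalized count was 2112 to 2322 in Syk+/+ and 1426 to 1788 in Sykdel/del, with no marker at 0 in all libraries. Markers of non-classical monocytes, the patrolling subset, differed further, as 10 of 15 were called lower, with a median of -1.39 and a sum of 16774 to 23159 against 11159 to 13392, again with none at 0 in all libraries. Over all genes tested, 0.349% were called lower. The marker lists were chosen with earlier results of these data known, so their counts are a description and no independent support. The 9 markers of classical monocytes had 0 calls, 1 of 9 with an unadjusted p under 0.05 in limma, and a median of 0.16, all 9 being above 0, and their sum was 127212 to 142652 in Syk+/+ and 148983 to 171648 in Sykdel/del. Plasma and B cell markers summed to 1582 to 1873 in Syk+/+ and 1946 to 2115 in Sykdel/del. The few reads of T and NK cell markers summed to 26.8 to 32.7 and 18.7 to 18.8. Neither of these 2 lists held a called gene. The sums of neutrophil, plasmacytoid dendritic cell, erythroid and osteoclast markers overlapped between the genotypes. The part of all these cells in the level of Lgmn was not tested.

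**Figure D2:**
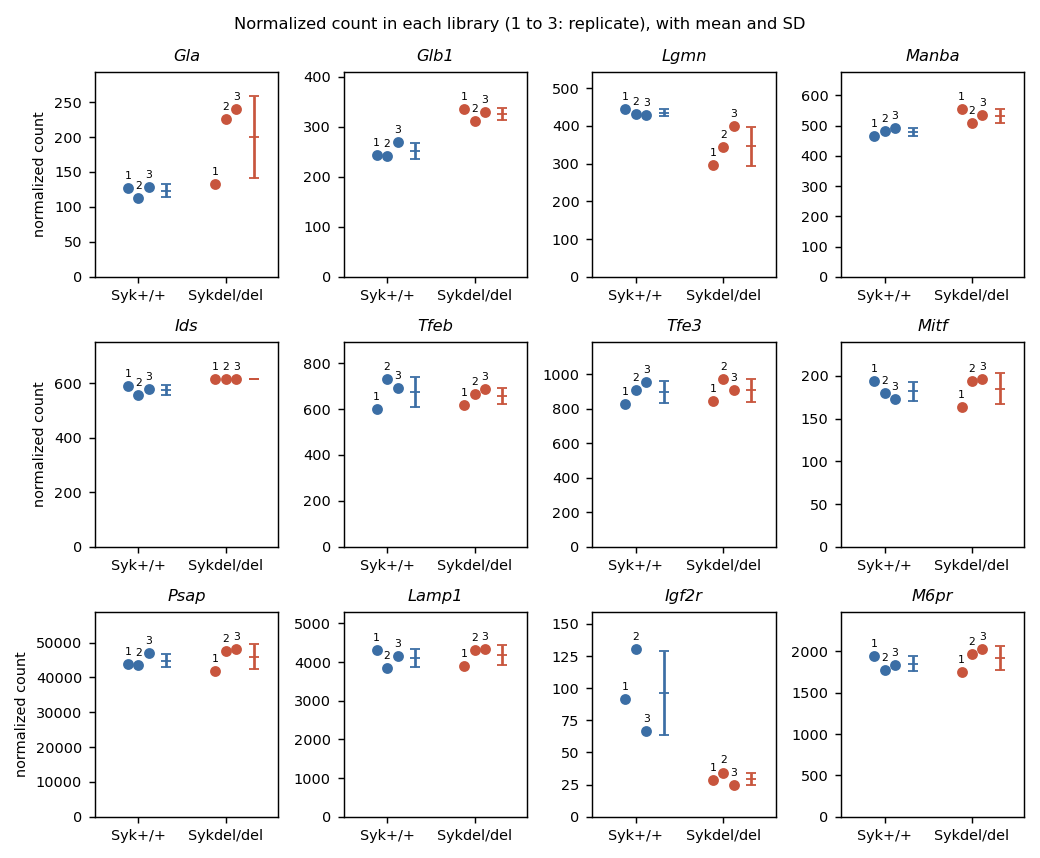
Normalized count (vertical axis, from 0) of 10 members and the mannose 6-phosphate receptor genes Igf2r and M6pr in each library, numbered by replicate, with the mean and SD of the 3 libraries of a genotype beside them. Gla is far above the Syk+/+ libraries only in Sykdel/del replicates 2 and 3, Glb1 and Lgmn separate the genotypes in opposite directions, and Igf2r separates the genotypes while M6pr does not.

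The membrane proteins were level between the genotypes, with a median log2 fold change of 0.0039. Lamp1 and Lamp2, which encode major glycoproteins of the lysosomal membrane, were at 0.03 each. Mcoln1, the calcium-permeable channel TRPML1, was at -0.02. Cln3, a membrane protein whose loss causes juvenile Batten disease in humans, had the largest difference of the 4, with 494, 551 and 537 in Syk+/+ and 488, 507 and 524 in Sykdel/del. Its genotypes overlapped, and the log2 fold change was -0.06 (95% interval -0.25 to 0.14).

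The RNA of the 3 transcription factors also did not separate the genotypes. Tfeb was 602, 732 and 692 in Syk+/+ and 620, 668 and 687 in Sykdel/del, at a log2 fold change of -0.03 (95% interval -0.24 to 0.18). Tfe3 was 824, 910.3 and 954 in Syk+/+ and 841, 972 and 905 in Sykdel/del, at 0.02 (95% interval -0.19 to 0.22). Mitf was 194.5, 179.6 and 173 in Syk+/+ and 164, 194 and 197 in Sykdel/del, at 0.02 (95% interval -0.25 to 0.29). For all 3 the ranges of the genotypes overlapped, and the intervals leave room for changes of up to 0.29 on the log2 scale. Per kilobase of exon, Tfe3 (228 to 269) was above Tfeb (150.0 to 182) and Tfeb above Mitf (30.8 to 37.0) in every library, without overlap. Tfec, the family member outside the list, was at 208 to 284 per kilobase, above Tfeb in every library and overlapping Tfe3. In normalized counts Tfec was 371 to 508 and lay below Tfeb in every library. Its place above Tfeb thus rests on the summed exon length, 1787 bases for Tfec and 4016 for Tfeb. The log2 fold change of Tfec was 0.20 (95% interval -0.04 to 0.43, adjusted p = 1.00 from limma). These factors are switched mainly by their place in the cell, which RNA levels do not show.

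The V-ATPase has a V1 sector in the cytosol that splits ATP and a V0 sector in the membrane that carries the protons. Its 11 member genes had a median log2 fold change of 0.08, and 10 of the 11 lay above 0, from 0.02 to 0.11, while Atp6v0c was at -0.05, and 6 of the 11 changed sign as a library was left out. None of them was called, none had an unadjusted p under 0.05, and none separated the genotypes. Their summed normalized count was 9518, 8746 and 9044 in Syk+/+ and 9774, 9497 and 9390.3 in Sykdel/del, and Syk+/+ replicate 1 lay within the Sykdel/del range. The median of the pump genes moved between 0.03 and 0.11 as each library was left out.

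All 6 V1 members were above 0, with a median of 0.09, but Atp6v1a, Atp6v1c1 and Atp6v1h were below 0 without Sykdel/del replicate 1. Atp6v1h, the regulatory H subunit, had the largest difference, with 405, 399 and 340 in Syk+/+ and 480.0, 381 and 376 in Sykdel/del. Its log2 fold change of 0.11 (95% interval -0.15 to 0.36) rested on Sykdel/del replicate 1, and without that library it was -0.01. The catalytic A subunit gene Atp6v1a (0.10), the B subunit gene Atp6v1b2 (0.09) and the stalk genes Atp6v1e1 (0.09), Atp6v1d (0.08) and Atp6v1c1 (0.03) had overlapping genotypes. In the V0 sector the largest difference was that of Atp6v0b, a subunit of the proteolipid ring, with 534, 472 and 557 in Syk+/+ and 499.9, 582 and 568 in Sykdel/del. The libraries overlapped and the log2 fold change was 0.08 (95% interval -0.14 to 0.30). The d subunit gene Atp6v0d1, which links V0 to the stalk, the e subunit gene Atp6v0e and the accessory subunit gene Atp6ap1 were at 0.07, 0.04 and 0.02. Atp6v0c, the main proteolipid, has processed copies in the mouse genome, and 1 row named as such a copy held 0 reads.

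**Figure D3:**
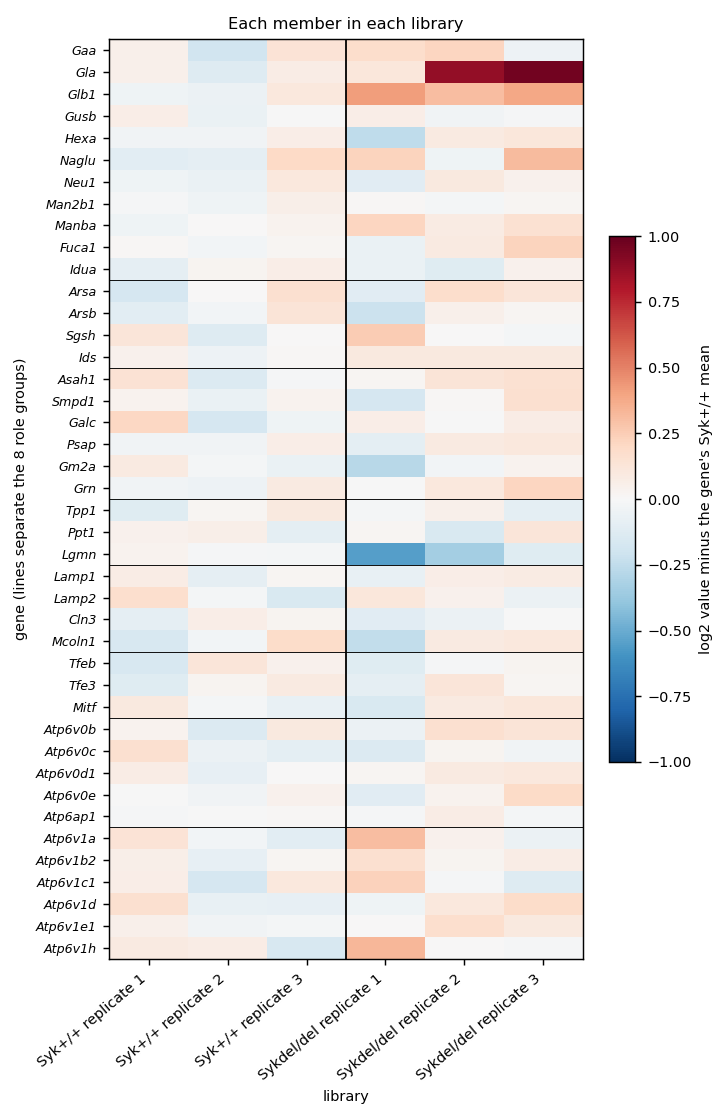
Log2(normalized count + 1) of each member minus its Syk+/+ mean (colour, red higher and blue lower, in log2 units), with 1 column per library and 1 row per gene. Most rows are pale in all columns. In Sykdel/del the strongest colour is that of Gla in replicates 2 and 3, while Glb1 is red and Lgmn blue in every library. Atp6v1h, Atp6v1a and Naglu reach a red like that of Glb1 in 1 Sykdel/del library each.

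Libraries of the same genotype differed among themselves. Syk+/+ replicate 2 was the lowest of the 6 libraries for 16 of the 42 members, and Sykdel/del replicate 1 for 13. Sykdel/del replicate 3, the shallowest library, was the highest for 14. The median member deviated from its Syk+/+ mean by -0.04 and 0.04 in Syk+/+ replicates 2 and 1, and by -0.02 and 0.08 in Sykdel/del replicates 1 and 3. These medians of single libraries of the same genotype lie farther apart than the 0.03 between the genotypes.

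The pump genes outside the member list show which forms of each subunit have the most RNA in these libraries, as a level and not a difference. Which forms are built into the pump was not measured. Per kilobase of exon, and with the genes chosen after their values were seen, the B2 gene Atp6v1b2 was at 894 to 1059 and the B1 gene Atp6v1b1 at 0.324 to 1.09. The a3 gene Tcirg1 (612 to 783) was above Atp6v0a1 (72.1 to 94.8) and Atp6v0a2 (63.4 to 83.0), which overlapped each other. Atp6v0d1 was at 453 to 516 and Atp6v0d2, known from osteoclasts, at 1.65 to 7.37. Atp6v0a4, Atp6v0e2 and Atp6v1e2 had 0 reads in all 6 libraries together (by counting error, a limit of 3 reads), while Atp6v1c2 had 3 reads and Atp6v1g3 had 1. Of the 15 other subunit genes listed, 10 were tested, 0 were called, and their median log2 fold change was -0.12.

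**Figure D4:**
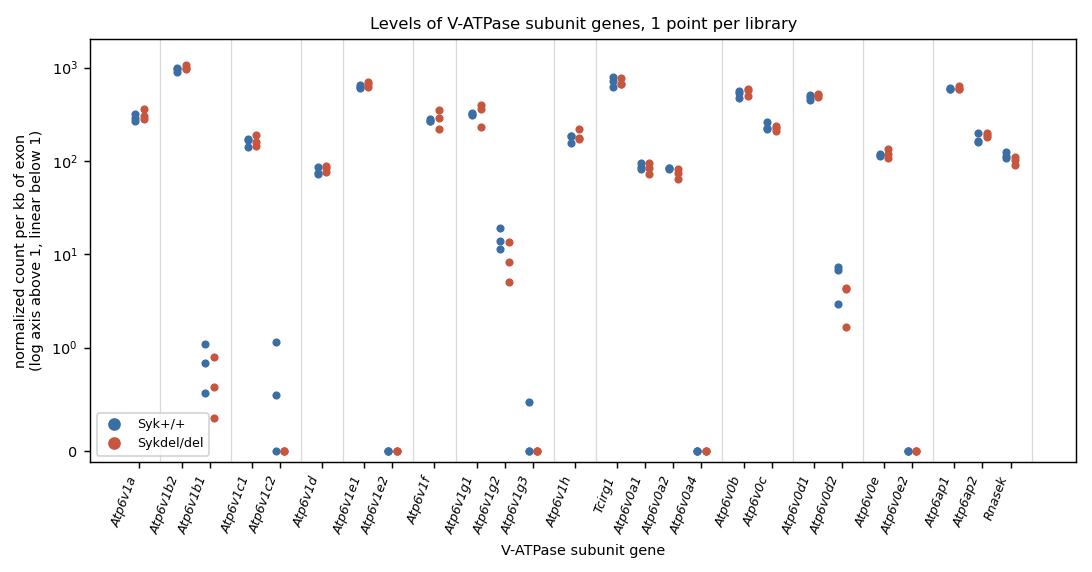
Normalized count per kilobase of exon (vertical axis, logarithmic above 1 and linear below) of the V-ATPase subunit genes, members and others, with 1 point per library and genotype by colour. Isoforms of a subunit stand side by side, and 1 form is well above the others for the B, C, E, G, a, d and e subunits in both genotypes.

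The other parts of the lysosomal pathway held a single gene that was called. Of 141 further genes in 7 lists, 135 were tested, 1 was called lower and 0 higher, and their median log2 fold change was 0.03. Over all genes tested, 0.349% were called lower and 0.0214% higher, so a single call in lists of this size is not a result about the pathway. None was called among 32 other hydrolases and cofactors (median 0.04), 10 cathepsins (-0.07), 24 other membrane proteins and transporters (0.05), 23 regulators of TFEB (0.03) and 21 autophagy genes (0.01). The gene with the smallest p among the hydrolases was Glb1l, a relative of Glb1, at a log2 fold change of 0.45 (adjusted p = 0.75 from limma). Among the membrane proteins it was Slc11a1, the metal transporter NRAMP1 of phagosomes, with 511, 621 and 545 in Syk+/+ and 391, 492 and 421 in Sykdel/del. The genotypes did not overlap, at a log2 fold change of -0.36 (95% interval -0.60 to -0.12, adjusted p = 0.42 from limma), and the part in it of the cells whose marker sums are given beside Lgmn was not tested. Among the regulators it was Fnip2, a partner of folliculin, at 0.26 (adjusted p = 0.84 from limma), among the cathepsins Ctsf at -0.60 and among the autophagy genes Atg3 at -0.18.

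The gene that was called was Igf2r, the cation-independent mannose 6-phosphate receptor, which carries newly made hydrolases to the lysosome and takes them up from outside the cell. The gene lies on chromosome 17 from 12682406 to 12769664. Its normalized count was 91.6, 131 and 66.4 in Syk+/+ and 28.8, 34.4 and 25.0 in Sykdel/del, so the lowest Syk+/+ library was well above the highest Sykdel/del library. The log2 fold change was -1.63 (SE 0.25, 95% interval -2.18 to -1.09), 3.11-fold lower, with an adjusted p of 0.013 from limma. It rested on few reads, 381 in all libraries together. The call was lost in limma without Syk+/+ replicate 1 (adjusted p = 0.096) or Syk+/+ replicate 2 (0.090). It was also lost in limma without a trend on the mean (0.30), in limma-voom (0.0502) and after thinning the reads to 1 depth (0.23). Calls over all genes fell too, from 52 to 10, 4, 6, 34 and 0 in these settings in turn. The log2 fold change of Igf2r stayed between -1.87 and -1.39. The other mannose 6-phosphate receptor gene, M6pr, named here after its values were seen, was 1946, 1771.5 and 1832 in Syk+/+ and 1750.2, 1966.5 and 2030.4 in Sykdel/del. Its genotypes overlapped, at a log2 fold change of 0.05 (95% interval -0.15 to 0.24). Sort1, the sorting receptor sortilin that carries prosaposin among others, was at 0.11 (adjusted p = 1.00 from limma). The sum of the non-classical markers was 16774, 23159 and 16894 in Syk+/+ and 11159, 11913 and 13392 in Sykdel/del. With 3 libraries per genotype, the order of the libraries within a genotype cannot relate this sum to Igf2r. The part of these cells in the level of Igf2r was not tested.

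**Figure D5:**
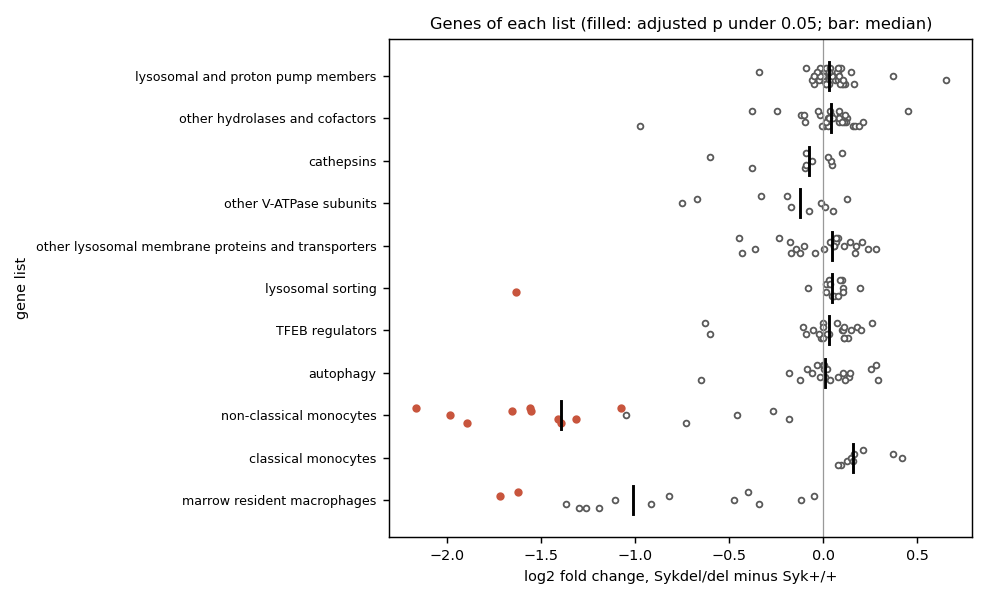
Log2 fold change (horizontal axis, Sykdel/del minus Syk+/+) of every tested gene of the member list, the 7 other lysosomal lists and 3 marker lists, with 1 point per gene, filled at an adjusted p under 0.05, and the median as a bar. The lysosomal lists centre near 0 with Igf2r as the 1 filled point, whereas the markers of non-classical monocytes and of resident macrophages lie to the left.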

How the data were processed

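Total RNA of bone marrow monocytes was depleted of rRNA, made into directional libraries and sequenced as read pairs. With CLC Genomics Workbench the authors aligned these to GRCm38/mm10 and counted them per annotated gene, and they deposited log2 values for 49585 rows and 6 libraries. Which annotation, version and strand setting were used is not given in the sources used here. TPM is named in the methods, but each library's values, taken back from log2(x + 1), were whole multiples of 1 step for every gene (100% within 0.06 of a read). Hence x is scaled per library and not by gene length. A column of p-values from the authors' own comparison was not used.

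Linear models were fitted to the deposited log2 values in R 4.3.3 with limma 3.58.1, with genotype as the only factor and variances moderated along a trend, for rows that reached a normalized count of 1 in 3 libraries or more. Tests were two-sided, with Benjamini-Hochberg adjustment over all genes tested and a threshold of 0.05. The script was tested on simulated data. Levels per kilobase used the summed exon length in GENCODE for GRCm38, and 42 of 42 members were matched by name. The strand setting being unknown, 10 members with a neighbour on the opposite strand that shares exon sequence (Atp6v0b, Atp6v1h, Arsa, Arsb and Cln3 among them) could hold its reads. The 95% intervals are limma's and rest on the spread between libraries, while the limit of 3 counts behind a count of 0 covers counting error only.

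The members and lists were chosen with earlier results of these data known. Values of every library are given for the 3 members with the smallest p in each direction, the 3 transcription factors and the member with the largest difference in each of 8 role groups, and from each other lysosomal list some of the 3 genes with the smallest p. The other pump genes, M6pr and the cell type markers named were chosen after their values were seen. Alternatives were other pseudocounts, filters and scalings, no trend, a replicate block and leaving out each library, and, added after the data were seen, limma-voom and thinned reads. A further detail of the mice's background is not reported here.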

Additional observations from a re-analysis of the deposited data

How the results depend on the processing

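The genotype comparison was repeated under 16 alternatives. Over all genes 52 were called, and 6 were called without a trend on the mean, 34 by limma-voom, 0 after thinning the reads to 1 depth, and between 4 and 92 as each library was left out (92 without Sykdel/del replicate 1, 4 without Syk+/+ replicate 2). Members called lower stayed at 0 under all 16, and members called higher were 0 except for 1, Gla, without Sykdel/del replicate 1, a range of 0 to 1. The median of the members ran from 0.02 to 0.07 and that of the V-ATPase members from 0.03 to 0.11 as each library was left out. Samples with the same replicate number deviated together only weakly (correlations 0.07, 0.09 and 0.05 over 7443 genes), so the numbers were not taken as pairs, and with the replicate block 53 genes and 0 members were called. Not every library correlated best with its own number, as Syk+/+ replicate 3 did so with Sykdel/del replicate 2. The planned fits of 2 count models were not run, since the table holds log2 values and not counts.

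Of the 42 members, 17 kept their sign under all 16 alternatives and 25 did not, 20 of these only when a library was left out. No member that changed sign was farther from 0 than 0.11. With a library left out the log2 fold change ran for Gusb from -0.027 to 0.039, Hexa -0.080 to 0.10, Neu1 -0.034 to 0.073, Man2b1 -0.017 to 0.032, Arsa -0.021 to 0.15, Arsb -0.10 to 0.035, Sgsh -0.0086 to 0.14, Smpd1 -0.079 to 0.083, Galc -0.038 to 0.15, Psap -0.0045 to 0.10, Gm2a -0.15 to 0.0043, Tpp1 -0.082 to 0.025 and Ppt1 -0.066 to 0.073. It ran for Lamp1 from -0.019 to 0.077, Lamp2 -0.043 to 0.12, Mcoln1 -0.097 to 0.095, Tfeb -0.11 to 0.026, Tfe3 -0.043 to 0.069, Mitf -0.029 to 0.10, Atp6v0c -0.098 to 0.031, Atp6v0e -0.040 to 0.11, Atp6ap1 -0.014 to 0.032, Atp6v1a -0.011 to 0.18, Atp6v1c1 -0.071 to 0.11 and Atp6v1h -0.0063 to 0.17. Upper-quartile rescaling turned Smpd1 to 0.0078 and Ppt1 to 0.0058. Quantile normalization turned Man2b1 to -0.00076, Psap to -0.079 and Ppt1 to 0.0085. Thinned reads turned Man2b1 to -0.0052, Ppt1 to 0.036 and Mcoln1 to 0.052. The cause was not tested. The member with the fewest reads in a library, Naglu, had 102, so counting limits the low members most.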
